A study of Mus musculus with 6 samples.

Results

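The regions described here are the narrow H3K4me3 peaks without H3K27me3 in proliferating neural stem cells (NSCs) of the mouse subventricular zone (SVZ), the wall of the lateral ventricle where neurons are made after birth. They were selected on measured values of 3 peak lists, with 1 list from each library. A member is an H3K4me3 peak on chromosomes 1 to 19 that is less than 1000 bp wide and that shares no base with an H3K27me3 peak, either of proliferating cultures or of cultures taken 30 h after the switch to differentiation. This rule kept 2013 of the 18727 H3K4me3 peaks (10.7%), or 2013 of the 18037 on these chromosomes (11.2%). Width and absence of H3K27me3 were therefore fixed by the choice and are not results, and the score comes from the same library and the same peak caller, so it is given as a description.

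The cultures were SVZ monolayers of C57BL/6 mice at passages 5 to 7, dissected early after birth and grown in serum with EGF and bFGF, and differentiation was started by taking both growth factors away and lowering the serum. No genotype beyond the strain is given in the labels. The tissue of a single mouse was plated per well, and whether mice were pooled for ChIP is not stated. Of the ChIP-seq libraries 3 were used, namely H3K4me3 (Active Motif antibody) in proliferating cultures, H3K27me3 (Millipore antibody) in proliferating cultures and H3K27me3 at 30 h of differentiation. The H3K4me3 culture was labelled ventral and the H3K27me3 cultures were not, and whether the marks come from the same cultures is not stated, while H3K4me3 was measured in proliferating cultures alone. With 1 library per mark and condition nothing below has a replicate check and nothing was tested between libraries. Intervals on shares and medians cover counting error over peaks, which share a library and are not replicates. Depth is unknown, as read numbers are not part of the peak lists. Gene positions and genome sequence of mm9, the build of the peaks, were not used here. Each peak is therefore named by its deposited coordinates, and the identity of the cultures was not checked on marker genes.

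H3K4me3 is laid down by the SET1 and MLL methyltransferases, several of which are drawn to unmethylated CpG-rich DNA, and it is best known from the start sites of genes that are transcribed or ready to be. Its width differs from site to site, and the widest domains are known to lie over genes that define a cell type. H3K27me3 is laid down by Polycomb repressive complex 2, whose catalytic subunit is EZH2, and marks genes held silent. One question of the study was whether EZH2 aids neurogenesis by adding H3K27me3 to certain loci as SVZ NSCs differentiate. Its ChIP-seq of NSC cultures served first to find loci that lacked H3K27me3 before differentiation.

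H3K4me3 peaks had a 2-humped distribution of widths, and the narrow peaks formed the outer side of the left hump. Among H3K27me3-free peaks on chromosomes 1 to 19, the classes of 100 bp were fullest at 900 to 1000 bp, with 606 peaks, and at 2200 to 2300 bp, with 675. Between them the count fell to 411 at 1400 to 1500 bp. The limit of 1000 bp therefore runs through the top of the left hump and not through the trough beside it, and members were 2013 of the 4026 free peaks under 1400 bp. Members were 377 to 999 bp wide, with a median of 829 bp, and 1163 of the 2013 were 800 bp or wider. Together they held 4.25% of the H3K4me3-covered length on these chromosomes, against 11.2% of the peaks.

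**Figure D1:**
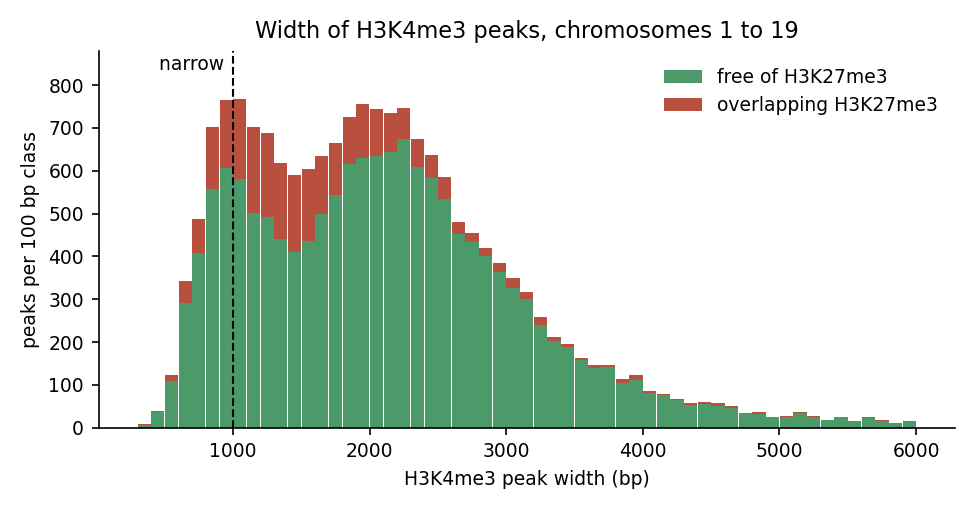
Number of H3K4me3 peaks on chromosomes 1 to 19 (y axis) in width classes of 100 bp (x axis, bp), stacked by overlap with H3K27me3 in either list. The dashed line marks 1000 bp, and narrow peaks lie to its left. The H3K27me3-free peaks are fullest at 900 to 1000 bp (606) and at 2200 to 2300 bp (675), with a trough of 411 at 1400 to 1500 bp.

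The scores of the peaks next to the limit varied on both sides of it. The 3 members just under it, each 999 bp wide, lay at chr11:6376051-6377050 with a score of 1995.33, at chr15:76804026-76805025 with 394.03 and at chr11:61893590-61894589 with 162.93. The 3 H3K27me3-free peaks just over it, each 1000 bp wide, lay at chr13:107812491-107813491 with 1648.52, at chr1:39956743-39957743 with 1218.06 and at chr4:129876012-129877012 with 285.19. Both sets span a wide range of scores. The narrowest members were 377 to 392 bp wide and scored 61.18 to 101.69. Among them, chr4:86124302-86124679 was the narrowest, at 377 bp with a score of 80.59. It was followed by chr16:22230346-22230725 and chr17:6493104-6493483, both 379 bp wide, with scores of 74.43 and 70.30. The next were chr4:155587291-155587680 (389 bp, score 101.69) and chr2:41628136-41628528 (392 bp, score 61.18).

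Absence of H3K27me3, which the rule required, is described here only to place the members among other widths. Of the 2468 H3K4me3 peaks under 1000 bp, 2013 (81.6%, 95% Wilson interval 80.0 to 83.0%) were free of H3K27me3 at both times, where the share over all 18037 peaks was 84.7%. The relation to width was not a straight one. The free share was 85.5% from 500 to under 750 bp (82.7 to 87.9%) and 79.7% from 750 to under 1000 bp (77.8 to 81.6%), and it was lowest, at 72.1% (70.5 to 73.6%), from 1000 to under 1500 bp. It was 80.5% from there to under 2000 bp, 91.0% to under 3000 bp and 94.0% to under 5000 bp. Peaks between the humps were thus the ones most often under H3K27me3, and narrow peaks stood between them and the wide ones. The 455 narrow peaks left out for their overlap met H3K27me3 mostly at 30 h, where 439 of them lay in a peak, against 314 in proliferating cultures. Of these, 298 met it at both times, 141 at 30 h alone and 16 in proliferating cultures alone. Wider peaks met the 30 h list more often too. From 1500 to under 2000 bp, 18.2% of H3K4me3 peaks overlapped it and 14.12% the proliferating list, and the order was the same in every width class. The split by time was not taken over wider peaks, so it is not shown to be particular to the narrow ones. The 30 h list is the longer one, with 15187 peaks over 73.4 Mb against 9470 over 29.2 Mb, and its part in this difference was not tested.

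The score, which the authors' peak caller MACS gave each peak and which grows with the evidence for enrichment, was low in nearly all members. It ran from 50.01, the lowest in the list, to 2390.28, with a median of 85.5 (order-statistic interval 83.9 to 87.3) and quartiles of 63.4 and 134.53. Of the 2013 members, 397 (19.7%) scored under 60, 1235 (61.4%) under 100 and 264 (13.1%) at least 200. The median over the whole H3K4me3 list was 2622.34, above every member. No member reached the score of 3100 that 60.8% of the 13261 wider H3K27me3-free peaks reached. Narrow peaks that overlapped H3K27me3 scored little higher, with a median of 93.3 (88.7 to 102.83). Within the members the score grew with width (Spearman's rho 0.42 over 2013 peaks of 1 library, as a description). In classes of 100 bp the median was 62.3 from 600 bp, 74.0 from 700 bp, 87.4 from 800 bp and 114.06 from 900 bp. From 1000 to under 1500 bp H3K27me3-free peaks had a median of 314.54, and from there to under 2000 bp it was 2282.06. Below 600 bp the order did not continue, since the 110 members from 500 bp had a median of 64.2 and the 36 from 400 bp one of 73.2 (60.1 to 97.5).

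The distance from a member to the next H3K4me3 peak ran from 1 bp to 2361.70 kb. The nearest other H3K4me3 peak was less than 1 kb away in 206 members (10.2%, 9.0 to 11.6%), 1 to 5 kb away in 211, 5 to 50 kb away in 892 and 50 kb or more away in 704 (34.97%, 32.9 to 37.1%). These classes hold all 2013. The same shares among the wider H3K27me3-free peaks were 6.12% (5.72 to 6.54%) under 1 kb and 27.03% (26.3 to 27.8%) at 50 kb or more. Members were therefore more frequent than wider peaks at both ends, and neither pair of intervals overlapped. Under 5 kb the shares were closer, since 417 members (20.7%, 19 to 22.5%) had another H3K4me3 peak less than 5 kb away, where 19.4% of all H3K4me3 peaks and 18.2% (17.6 to 18.9%) of the wider free ones did. Free peaks from 1000 to under 1500 bp stood at 23.2% and those from there to under 2000 bp at 22.3%, both above the members in value. Narrow peaks that overlapped H3K27me3 were more crowded, at 30.8% (26.7 to 35.2%) under 5 kb and 15.6% (12.6 to 19.2%) under 1 kb. At 50 kb or more they stood at 28.8% (24.8 to 33.1%), an interval that overlapped that of the members. The median distance was 26.1 kb (24.3 to 28.9 kb) for members, 23.2 kb (22.3 to 23.9 kb) for wider free peaks and 15.6 kb (12.3 to 19.8 kb) for narrow peaks over H3K27me3.

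**Figure D2:**
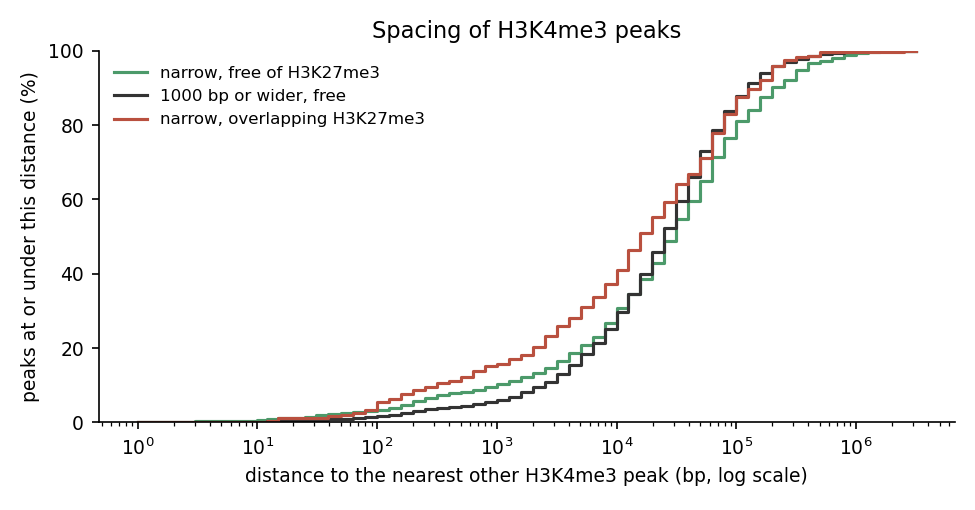
Cumulative share of H3K4me3 peaks (y axis, percent) by distance to the nearest other H3K4me3 peak (x axis, bp, log scale), for the 2013 narrow H3K27me3-free peaks, the 13261 wider free peaks and the 455 narrow peaks over H3K27me3, 1 library. At 1 kb the curves stand at 10.2%, 6.12% and 15.6%, and at 100 kb the curve of the narrow free peaks is the lowest of the 3.

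The highest-scoring narrow peaks were mostly close neighbours of another H3K4me3 peak. Of the 5 highest-scoring members, the first, chr11:5161682-5162512, scored 2390.28 and lay 11 bp from a peak 1683 bp wide. At chr4:88418860-88419826 the score was 1999.70 and the next H3K4me3 peak was 1798 bp away. The third, chr11:6376051-6377050, scored 1995.33 and lay 180 bp from a peak 5733 bp wide. The other two, chr17:83613607-83614484 with 1972.03 and chr11:105450112-105451078 with 1796.86, lay 242 and 246 bp from their neighbours. All 5 were 830 bp or wider and at least 33.1 kb from any H3K27me3 peak. Closeness to another H3K4me3 peak was not limited to these 5. Of the 17 members that scored 1000 or more, 16 had another H3K4me3 peak less than 1 kb away, and for 14 of them the distance was 101 to 283 bp. With the limit at 500, it was 34 of 70.

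The members beside another peak were themselves uneven. The 75 members at 100 to under 300 bp from their neighbour had a median score of 219.32 (131.20 to 539.42), and 38 of them scored 200 or more. Those closer still, 67 members under 100 bp, had a median of 143.72 (95.2 to 190.90), and 64 at 300 to under 1000 bp had one of 82.9 (68.8 to 98.99). The interval of the last group took in the medians of the more distant members, which were 83.0 to 86.4 in every class from 1 kb to over 100 kb. Only at 100 to under 300 bp did the interval lie above those of all more distant classes. The interval under 100 bp overlapped both its neighbours. The limits of 100 and 300 bp were not among the planned ones. They enclose the 101 to 283 bp given above for the highest-scoring members, so these classes are a description and not separate support. Across all 2013 members the rank correlation of score with distance was -0.09.

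Most neighbours were wider and higher-scoring than the member, near and far alike, as members were chosen for small width. Of the 206 members with a peak less than 1 kb away, 180 had a lower score than that peak and 186 were narrower, and of the 383 with none within 100 kb it was 334 and 342. Less than 1 kb away the neighbour was 1000 bp or wider in 163 cases, and these were 163 different peaks, so that no wider peak was the nearest neighbour of a member on each of its flanks. In 107 of the 206 cases (51.9%) the neighbour scored 3100 or more. By the same measure it was 42.8 to 51.6% in the classes from 1 kb to over 100 kb. In 194 of the 206 cases (94.2%) the neighbour was itself free of H3K27me3, against 84.7% of all peaks on these chromosomes. For members with no peak within 100 kb this share was 85.4%. The rule kept only members free of H3K27me3, which bears on peaks this close, so the higher share is not a result. H3K4me3 peaks within 5 kb on both sides were found for 36 members (1.79%), a share that was not taken over other peaks. With peaks less than 1 kb apart joined before the limit of 1000 bp is applied, 1807 narrow free peaks are left. Whether these small peaks are parts of 1 domain that the caller divided was not tested.

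**Figure D3:**
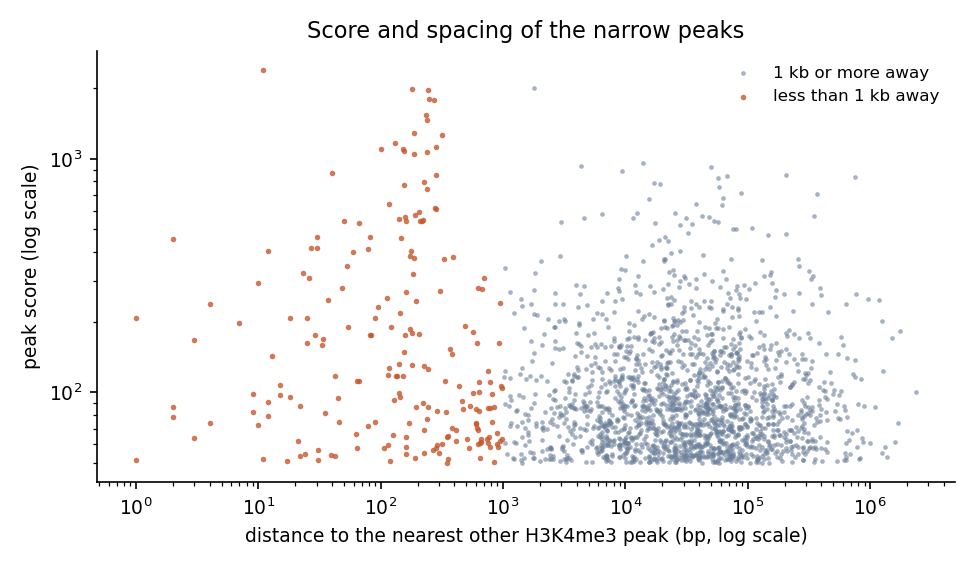
Score of each of the 2013 narrow H3K27me3-free peaks (y axis, log scale) against the distance to the nearest other H3K4me3 peak (x axis, bp, log scale), 1 library. Members less than 1 kb from another peak are in orange, and 16 of the 17 that score 1000 or more are among them.

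Some members lay next to another narrow peak. Of the 206 with a peak less than 1 kb away, 43 (20.9%) had a narrow one as the nearest, where narrow peaks were 13.7% of all on these chromosomes. Members that were each other's nearest peak are each counted. The share was not particular to close neighbours. It was 6.25% at 1000 to under 2000 bp, 12.39 to 16.2% in the classes from there to 100 kb, and 22.45% for members with no peak within 100 kb. With members less than 5 kb apart joined, 1949 stood alone and the other 64 formed 32 pairs, with no longer run. The strongest pair lay on chromosome 9, where chr9:15297455-15298069 (614 bp, score 148.88) and chr9:15298224-15299200 (976 bp, score 1081.97) were 155 bp apart. No H3K27me3 peak came within 64.0 kb of either.

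At the other end, 383 members (19.03%, 17.4 to 20.8%) had no other H3K4me3 peak within 100 kb, against 12.1% (11.6 to 12.7%) of the wider free peaks. They were slightly narrower, with a median of 799 bp, and had a median score of 83.0 (78.3 to 87.3), close to the medians of members nearer to a peak. The most isolated of all was chr5:60622377-60623231, 854 bp wide with a score of 100.78, whose nearest H3K4me3 peak was 2361.70 kb away. Its nearest H3K27me3 peaks were 824.92 kb away in the proliferating list and 3417.02 kb away at 30 h. At chr17:39147920-39148916 the nearest H3K4me3 peak was 1739.74 kb away and the score 182.93. The next 3 were chr14:83153014-83153570 (1688.36 kb, score 73.67), chr18:27756950-27757573 (1591.86 kb, score 61.36) and chr2:87365942-87366857 (1504.57 kb, score 171.42). These scores lay in the ordinary range of the members. Isolated members could also be strong for their class. The 5 highest-scoring ones without an H3K4me3 peak in 100 kb, chosen after their values were seen, scored 505.51 to 855.94. The first of them, chr9:78669026-78669990, was 964 bp wide and scored 855.94, with the next H3K4me3 peak at 203.90 kb. The second, chr9:33535725-33536390, was 665 bp wide and scored 836.22, with the next at 756.68 kb.

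H3K27me3 lay within 5 kb of few members, at shares close to those over all free peaks. A 30 h H3K27me3 peak began less than 5 kb away from 200 members (9.94%, 8.70 to 11.3%), where the share over all H3K27me3-free H3K4me3 peaks was 10.1%. For the proliferating list it was 78 members (3.87%, 3.12 to 4.81%), where that share was 3.79%. Both intervals of the members took in the share over all free peaks. Further out the members were more remote, with 697 (34.6%, 32.6 to 36.7%) less than 50 kb from a 30 h peak against 40.9% (40.1 to 41.7%) of the wider free ones. In proliferating cultures the same shares were 25.3% (23.4 to 27.2%) and 28.7% (28.0 to 29.5%). The median distance to a 30 h peak was 103 kb for members (96.1 to 114 kb) and 72.8 kb for wider free peaks (70.6 to 75 kb).

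Taking both times, 57 members had H3K27me3 within 5 kb at each, 143 at 30 h alone, 21 in proliferating cultures alone and 1792 (89.0%) at neither. The part of the longer 30 h list in this order was not tested. The same split was not taken over all H3K27me3-free peaks, so it is not shown to be particular to the members. The 200 members near a 30 h peak scored 95.9 at the median (86.6 to 109.90), against 85.0 (83.2 to 86.9) for the rest, and these intervals overlap slightly. They also lay nearer to other H3K4me3 peaks, at a median of 15.1 kb (10.9 to 21.9 kb) against 27.7 kb (25.3 to 30.6 kb). Neither contrast was taken over the wider free peaks, so neither is shown to be particular to the members. H3K27me3 stood on both sides within 5 kb in 32 members at 30 h and in 2 members in proliferating cultures. These counts too were not taken over all free peaks.

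Few members sat close to the edge of an H3K27me3 peak, at shares near those of wider free peaks. A 30 h peak was less than 1 kb away from 73 members (3.6%, 2.9 to 4.5%), against 3.1% (2.8 to 3.4%) of the wider free peaks. For the proliferating list it was 16 members (0.79%, 0.49 to 1.29%) against 0.53% (0.42 to 0.67%). Both pairs of intervals overlapped, so the peaks named here are examples and not a trait of the members. The highest-scoring one near both lists, chr8:24084414-24085238, scored 1166.62 and lay 106 bp from an H3K27me3 peak at each time, as well as 131 bp from an H3K4me3 peak 1096 bp wide. At chr12:81858599-81859276 a 30 h peak began 4 bp away and a proliferating peak 104 bp away, and the member scored 75.13. At chr17:6493104-6493483 the distances were 11 bp at 30 h and 2773 bp in proliferating cultures. At chr1:60917574-60918320, by contrast, the 30 h peak was 19 bp away but the nearest proliferating one was 506.37 kb away. On the proliferating side, chr11:107656032-107656659 and chr7:75519020-75519590 each lay 103 bp from a peak, and chr8:122413294-122413935 lay 104 bp from one while its nearest 30 h peak was 102.11 kb off. These members were named after their values were seen, apart from the one on chromosome 17. With every member less than 5 kb from H3K27me3 left out, 1792 remained and the median score was 85.0.

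Members were spread over all 19 autosomes, from 61 on chromosome 19 to 149 on chromosome 2. As a share of the H3K27me3-free peaks of a chromosome they ranged from 11.1% (9.15 to 13.4%) on chromosome 9 to 15.4% (12.7 to 18.5%) on chromosome 14, apart from chromosome 18. There 91 of 471 free peaks were narrow, or 19.3% (16.0 to 23.1%). The interval of chromosome 18 lay above those of 10 of the other 18 chromosomes and overlapped those of 8. Chromosome 18 was singled out after all 19 shares were seen.

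**Figure D4:**
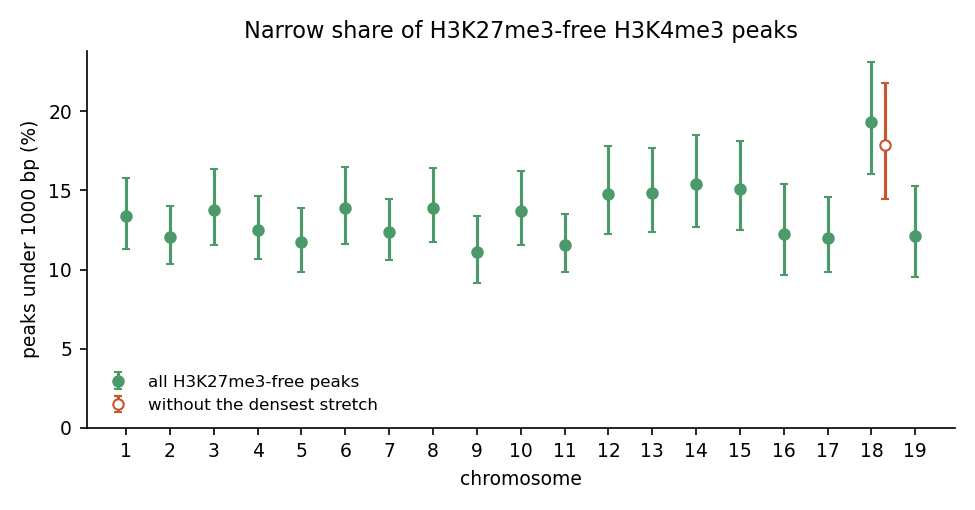
Share of H3K27me3-free H3K4me3 peaks that are under 1000 bp wide (y axis, percent) on each autosome (x axis), 1 library, with 95% Wilson intervals for counting error. Chromosome 18 is the highest at 19.3%, and the open point gives it without the densest 2 Mb, at 17.9%; the others lie between 11.1 and 15.4%.

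Members were also counted in windows of 1 Mb. Of 2166 windows that held any H3K4me3 peak, 1206 (55.7%) held a member, 711 of them exactly 1, and 24 held 5 or more. The fullest was chr18:37000000-38000000 with 9 members, and its neighbour chr18:38000000-39000000 held 7. Windows with 8 members lay on chromosome 10 from 80000000, on chromosome 11 from 101000000 and on chromosome 5 from 115000000. When the windows were moved by 0.5 Mb the fullest was instead on chromosome 10, from 79500000 to 80500000, with 10 members. The order of the fullest windows thus depends on where they are cut. Counts also follow the number of peaks, and the window on chromosome 10 from 80000000 held 61 H3K4me3 peaks in all, where the first on chromosome 18 held 30. Narrow peaks were 33.3% of the H3K27me3-free ones in the latter (9 of 27, 18.6 to 52.2%) and 15.1% in the former (8 of 53, 7.85 to 27.1%). On chromosome 6 from 30000000 they were 53.8% (7 of 13, 29.1 to 76.8%). Over all H3K27me3-free peaks on chromosomes 1 to 19 the share was 13.2% (2013 of 15274), which lies inside the interval of the window on chromosome 10. The windows were picked for holding many members, which favours high shares, so these shares are a description only.

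The 2 windows on chromosome 18 together held 16 members among 51 H3K27me3-free peaks (31.4%, 20.3 to 45.0%), more than any other pair of adjoining windows, of which the next, on chromosome 10 from 79000000, held 12. Without this stretch 75 of 420 free peaks of the chromosome were narrow, or 17.9% (14.5 to 21.8%), still above the other chromosomes in value. The members there ran from 37179643 to 38964596, were 568 to 954 bp wide and were all weak, with scores of 54.27 to 143.07 and a median of 78.9. The highest, 143.07, was at chr18:37901585-37902453, and the next, 140.31, at chr18:38039146-38040100. Wider H3K27me3-free peaks in the same stretch were narrow for their class, with a median width of 1494 bp among 35 against 2231 bp among all 13261, and a median score of 459.33. Members from chr18:37821214-37822161 (score 105.04) to chr18:37901585-37902453 lay among wider free peaks. The proliferating list had 1 peak in the stretch, 122 kb from the nearest member, and the 30 h list had 11, the nearest 13.3 kb from a member. The stretch and its peaks were chosen after the window counts were seen.

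**Figure D5:**
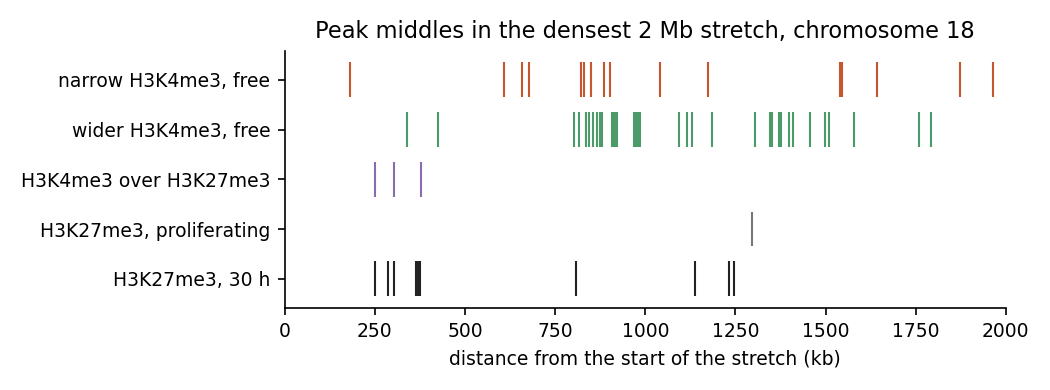
Middles of the peaks in 2 Mb of chromosome 18 (x axis, distance in kb from the start of the stretch, 37000000), by kind of peak (rows), 1 library per mark and condition. The 16 narrow H3K27me3-free peaks are in the top row and the 35 wider free ones below it, and the lower rows show 3 H3K4me3 peaks over H3K27me3 and the H3K27me3 peaks of the proliferating (1) and 30 h (11) lists.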

How the data were processed

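The authors deposited 1 peak list per ChIP-seq library, each with chromosome, start, end, name and a MACS score, and no read counts. Per the labels, reads were aligned with Bowtie2 to mm9. The study's methods name MACS as the caller and, for H3K27me3, switch off its shifting model and local background. Not given in the sources used here are the version, the threshold, the H3K4me3 settings and how inputs entered. Of the H3K4me3 peaks, 44.87% share the score 3100, and the highest is 3233.06. The lowest score is 50.01 or 50.03, so weaker sites are missing from every list.

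Peaks overlapped when they shared 1 bp or more. Distances run from edge to edge, and "within" means less than the distance given. Coordinates are as deposited, and whether starts count from 0 or 1 is not stated. Python 3.11.15, numpy 2.4.6, pandas 2.3.3, scipy 1.17.1 and matplotlib 3.10.9 were used. The number of H3K27me3-free peaks was the same with bedtools 2.31.1, and the overlap and distance code matched a base-by-base count in 20 of 20 simulated pairs of lists. Intervals are 95% Wilson intervals for shares and binomial order-statistic intervals for medians. With 1 library per condition no test was run.

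Named peaks were, by rule, the 5 highest-scoring and 5 narrowest members, the 3 on each side of 1000 bp, the 5 most isolated and the longest run of members, of which 32 tied at 2 members and the one with the highest score was taken; the other named peaks are marked as chosen afterwards. The members and the rules were chosen with earlier results of these data known. The gene table at hand is of GRCm38 and not of mm9, so the planned results on start sites, CpG content and gene lists were not computed.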

Additional observations from a re-analysis of the deposited data

Results flagged for a closer look

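The members were limited to chromosomes 1 to 19, and narrow H3K27me3-free H3K4me3 peaks were also found outside them. On chromosome X there were 69 among 577 H3K27me3-free peaks (12.0%, 95% Wilson interval 9.56 to 14.9%), with a median score of 87.5 and a median width of 796 bp. On chromosome Y and the unplaced contigs there were 11 among 54, with a median score of 94.7. No comparison above uses them.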

How the results depend on the processing

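The number of members depended most on the width limit and the score. It was 645 with a limit of 750 bp and 3342 with 1.25 kb, 778 with H3K4me3 peaks scoring 100 or more, and 0 in the stronger 50% of the H3K4me3 list, where the other values could not be computed. The share of narrow peaks free of H3K27me3 was 85.8% with 750 bp, 78.2% with 1.25 kb, 72.6% with no H3K27me3 within 5 kb, 87.3% against the proliferating list alone and 78.7% with scores of 100 or more. The median score was 67.3 with 750 bp, 118.40 with 1.25 kb and 157.87 with scores of 100 or more. The share with another H3K4me3 peak within 5 kb was 11.7% after joining peaks less than 1 kb apart, which removes such neighbours by construction. The other 18 values, among them all 4 with chromosome X added, stayed within the interval of the value given above or, for counts, within 1.5 times of it. The score limit, the removal of close members, the moved windows and the omission of the stretch on chromosome 18 were chosen after seeing the data. The settings planned for start sites and CpG content were not run for want of mm9 positions. Depth is unknown and limits what any list can hold.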
